A study of Mus musculus with 12 samples.

Results

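Adult villus enterocytes (AE) were compared with Lgr5-positive intestinal stem cells (ISC) of the mouse small intestine by RNA-seq. The comparison used 6 of the 12 libraries of the series, 3 of each cell population, chosen by their labels. AE were taken from the villus fraction of adult gut and sorted as EpCAM-positive, CD31-negative, CD45-negative and viable cells, so that the gate selected epithelium and not one epithelial cell type. ISC were sorted from crypts by high EGFP driven from the Lgr5 locus. Every animal of both groups was a male of mixed C57BL/6 and CD1 background at postnatal day 60 and carried the Lgr5EGFP-Cre-ERT knock-in allele, which expresses EGFP and a tamoxifen-dependent Cre in Lgr5-positive cells and is known to be mosaic in the intestine. Each replicate came from 1 gut, and the labels describe the 3 libraries of a group as biological triplicates.

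The intestinal epithelium renews itself from stem cells at the crypt base. These cells divide under Wnt and Notch signals, their daughters multiply in the transit-amplifying zone, and cells that leave the crypt stop dividing and become either absorptive enterocytes or secretory cells (goblet, Paneth, enteroendocrine and tuft cells). Enterocytes carry a brush border of microvilli with digestive enzymes and nutrient transporters, change their expression as they move from villus base to villus tip, and are shed at the tip. In bulk libraries such as these, fewer cells of a type and less RNA per cell cannot be told apart.

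The AE libraries held 34157368, 17452260 and 12587626 gene counts in replicates 1, 2 and 3, and the ISC libraries 15104540, 17023849 and 22496396. Reads outside annotated genes made up 33.4% to 39.0% of the AE reads and 46.0% to 47.2% of the ISC reads. Reads with several alignments were listed at 0 in all 3 AE libraries and at 5.05% to 5.96% in the 3 ISC libraries, so a difference in handling follows the groups, and its part in the results cannot be told apart from cell type. Replicates of both groups differed by more than sampling noise. AE replicate 1 stood apart from the other AE libraries: the biological coefficient of variation, the spread between replicates beyond counting error, was 0.239 over the 3 AE libraries, 0.172 over AE replicates 2 and 3, and 0.164 over the 3 ISC libraries. On the first principal component, which held 88.9% of the variance, AE replicate 1 lay at -66.6, AE replicates 2 and 3 at -107.4 and -103.9, and the ISC libraries between 86.6 and 101.4. The counts over all genes are therefore given with and without AE replicate 1, as are the values of some lists and genes. Below, expression is in CPM, the counts per 1000000 counts of a library, after TMM scaling, values in threes are replicates 1, 2 and 3 in that order, and fold changes are AE over ISC on the log2 scale, so that a positive value is higher in AE.

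Of 13330 genes tested, 8864 (66.5%) differed between AE and ISC at an adjusted p under 0.05 in edgeR's quasi-likelihood test. AE were higher for 4426 genes (33.2%) and lower for 4438 genes (33.3%). With a further requirement of a log2 fold change of at least 1, AE were higher for 2854 genes (21.4%) and lower for 2780 (20.9%). All 3 AE libraries lay above all 3 ISC libraries in 4725 genes (35.4%) and below them in 4912 (36.8%). The larger changes leaned to AE: 244 called genes had a log2 fold change of 5 or more, against 20 of -5 or less. The split of calls depended on scaling, since with upper-quartile scaling, which moved the median of all genes by -0.26, 38.9% of calls were higher in AE, against 49.9% in the fit with TMM scaling. Without AE replicate 1, 9193 of 13568 genes (67.8%) were called, 4476 (33.0%) higher and 4717 (34.8%) lower in AE; 8494 of the 8864 calls were kept in the same direction, 370 were lost, 699 were gained and 0 turned round.

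**Figure D1:**
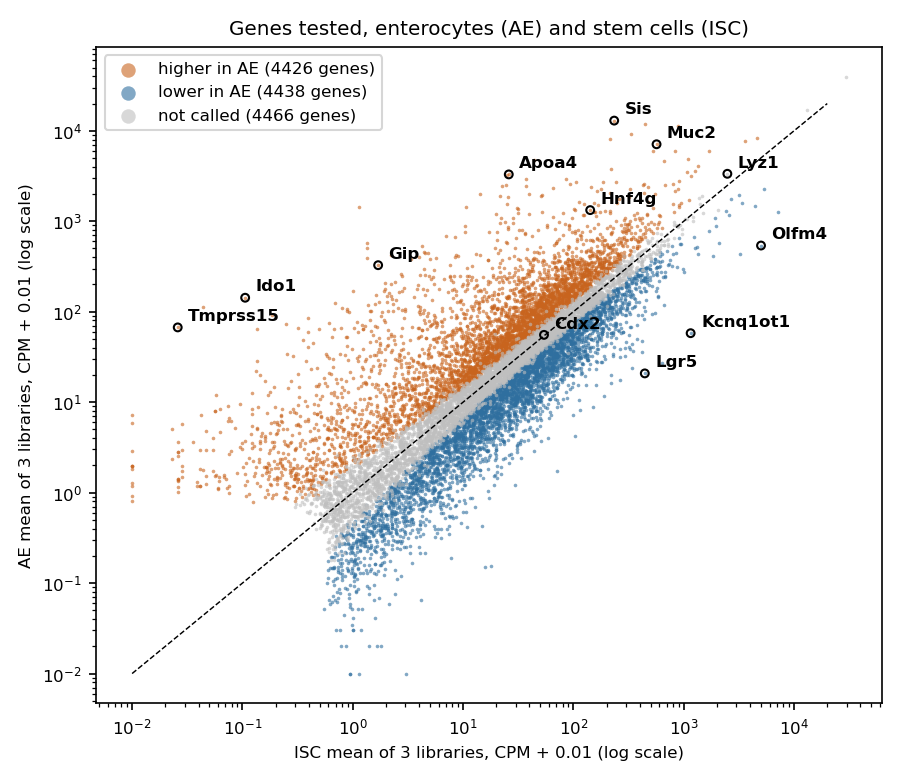
Each point is 1 of the 13330 genes tested, with the mean CPM of the 3 AE libraries (vertical axis) against that of the 3 ISC libraries (horizontal axis), both on log scales with 0.01 CPM added; colours mark the 4426 genes called higher in AE, the 4438 called lower and those not called. Tmprss15 and Ido1 lie far above the dashed line of equal expression, Lgr5, Olfm4 and Kcnq1ot1 below it, and Cdx2 on it.

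Among genes with a mean of at least 20 CPM in AE, those with the largest increases held brush border enzymes and genes barely counted in ISC. Tmprss15, which encodes enteropeptidase, the activator of trypsinogen, had 18.3, 89.4 and 93.5 CPM in AE, against 0, 0.0477 and 0 CPM in ISC. Its ISC value was 1 count in all, and no fold change is given. Akp3, an intestinal alkaline phosphatase of the mouse, had 707, 1854 and 1761 CPM in AE, against 1.91, 1.002 and 0.499 CPM in ISC (log2 fold change 10.35, SE 0.61, edgeR adjusted p = 2.15e-06). Ido1, which starts tryptophan breakdown along the kynurenine pathway, had 132, 157 and 139.8 CPM in AE, against 0, 0.0954 and 0.192 CPM in ISC, the ISC values resting on 7 counts in all. Pmp22, a gene of the villus tip in zonation studies of the mouse, had 154, 581 and 766 CPM in AE, against 0.875, 2.62 and 0.538 CPM in ISC (log2 fold change 8.55, SE 0.78, edgeR adjusted p = 1.60e-05), and 9.48 without ISC replicate 2. Afp, which encodes alpha-fetoprotein, also rose (log2 fold change 8.94, SE 0.31, edgeR adjusted p = 1.07e-06). Clca6, a calcium-activated chloride channel regulator under its older symbol, had a log2 fold change of 8.75, but 41.0% of its transcript sequence was shared with other genes, so its counts are uncertain. These genes were picked among those in which every AE library lay above every ISC library, as in 35.4% of all genes tested.

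Among genes with a mean of at least 20 CPM in ISC, those with the largest decreases held stem cell, long non-coding and cytoskeletal genes. The rule of choice, which also asked for no overlap and a call without AE replicate 1, left out most of the 20 called genes at -5 or less. Kcnq1ot1, a long non-coding RNA antisense to Kcnq1 that silences neighbouring imprinted genes in cis, had 49.2, 46.7 and 77.7 CPM in AE, against 1198, 1223 and 1045 CPM in ISC (log2 fold change -4.32, SE 0.25, edgeR adjusted p = 1.99e-06). No source used here gives the strand setting of the counting, so reads of Kcnq1ot1 and Kcnq1, which fell too with a log2 fold change of -2.68, cannot be told apart where the genes overlap. The non-coding transcript 4933417O13Rik changed by -5.44 and the transcript A930009A15Rik by -4.56 on the log2 scale. Slc1a2, a glutamate transporter, changed by -4.58, Edn1, which encodes the peptide endothelin 1, by -4.07, and Sorbs2, an adaptor of the actin cytoskeleton, by -3.99. Cyr61, the older symbol of Ccn1, a secreted matrix protein, changed by -4.53, and by -5.16 without AE replicate 1. Apart from Kcnq1, these genes were picked among those in which every AE library lay below every ISC library, as in 36.8% of all genes tested.

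Genes of the crypt base stem cell fell together. Of 36 list members tested, 33 were lower and 2 higher in AE, with a median log2 fold change of -2.72, against a median of -0.04 over all genes tested. Such counts describe members that passed the filter on low counts, which a gene could pass through the group where it was high alone. Lgr5, the R-spondin receptor whose reporter defined the ISC gate, had 18.2, 24.1 and 20.1 CPM in AE, against 430.0, 415 and 487 CPM in ISC (log2 fold change -4.42, SE 0.18, edgeR adjusted p = 1.46e-06). Because the gate used this gene, its difference is a check of the ISC sort and not a result. It does not show which epithelial cell types the AE libraries held. Olfm4, a secreted glycoprotein of stem cells, had 566, 483 and 569 CPM in AE, against 4894, 4868 and 5300.5 CPM in ISC (log2 fold change -3.22, SE 0.21, edgeR adjusted p = 3.11e-06). Ascl2, the Wnt-dependent transcription factor of stem cell identity, had 7.33, 4.98 and 9.16 CPM in AE, against 71.5, 97.7 and 131 CPM in ISC (log2 fold change -3.81, SE 0.29, edgeR adjusted p = 5.64e-06). Smoc2, a matricellular protein, changed by -2.72, the receptor genes Tnfrsf19 and Fgfr4 by -3.90 and -3.78, and Lrig1, a negative regulator of ErbB receptors, by -2.05. The members that rose were Scarb1, a lipoprotein receptor (2.41), and 2210407C18Rik (0.89); Vdr, the vitamin D receptor, did not pass the test (-0.28, edgeR adjusted p = 0.237). AE replicate 1 hardly stood apart on this list: the median difference in log2(CPM + 1) from the ISC mean was -2.56 in AE replicate 1, -2.69 in replicate 2 and -2.75 in replicate 3.

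Wnt and Notch genes fell in part. Of 24 Wnt targets and receptors tested, 14 were lower and 3 higher in AE, with a median of -1.22. Axin2, a feedback inhibitor and common Wnt reporter, had 93.5, 85.8 and 111 CPM in AE, against 495, 519 and 632 CPM in ISC (log2 fold change -2.50, SE 0.18, edgeR adjusted p = 4.26e-06). Myc, a Wnt target that drives growth, had 32.9, 45.6 and 38.8 CPM in AE, against 279, 330.2 and 361 CPM in ISC (log2 fold change -3.05, SE 0.18, edgeR adjusted p = 2.18e-06). Nkd1, another feedback inhibitor, changed by -2.61, and by -3.40 without AE replicate 1, and the receptor Fzd2 by -2.57. The feedback ubiquitin ligases Znrf3 and Rnf43, which remove Frizzled receptors, changed by -2.36 and -2.41. Of the 3 members higher in AE, Zbtb7c, a zinc finger gene, rose by 3.45 (4.41 without ISC replicate 3), and the changes of the receptor Fzd5 (0.41) and of Ctnnb1, which encodes beta-catenin (0.41), were small. The call of Fzd5 was lost without AE replicate 2 (0.28), AE replicate 3 (0.47), ISC replicate 1 (0.42), ISC replicate 2 (0.37) or ISC replicate 3 (0.43), and the call of Ctnnb1 was lost without AE replicate 2 (0.33), AE replicate 3 (0.46), ISC replicate 1 (0.40), ISC replicate 2 (0.38) or ISC replicate 3 (0.44). The effector Tcf7l2 did not pass the test (0.30, edgeR adjusted p = 0.116). Of 13 Notch pathway genes tested, 7 were lower and 1 higher in AE, beside 33.3% lower and 33.2% higher over all genes tested. The receptors Notch1 and Notch2 changed by -2.80 and -2.15, the glycosyltransferase Lfng, which modifies the receptors, by -2.98, and the target Hes1 by -1.31. The ligands Dll1 and Dll4 did not pass the test (0.22, edgeR adjusted p = 0.35, and 0.34, edgeR adjusted p = 0.233).

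**Figure D2:**
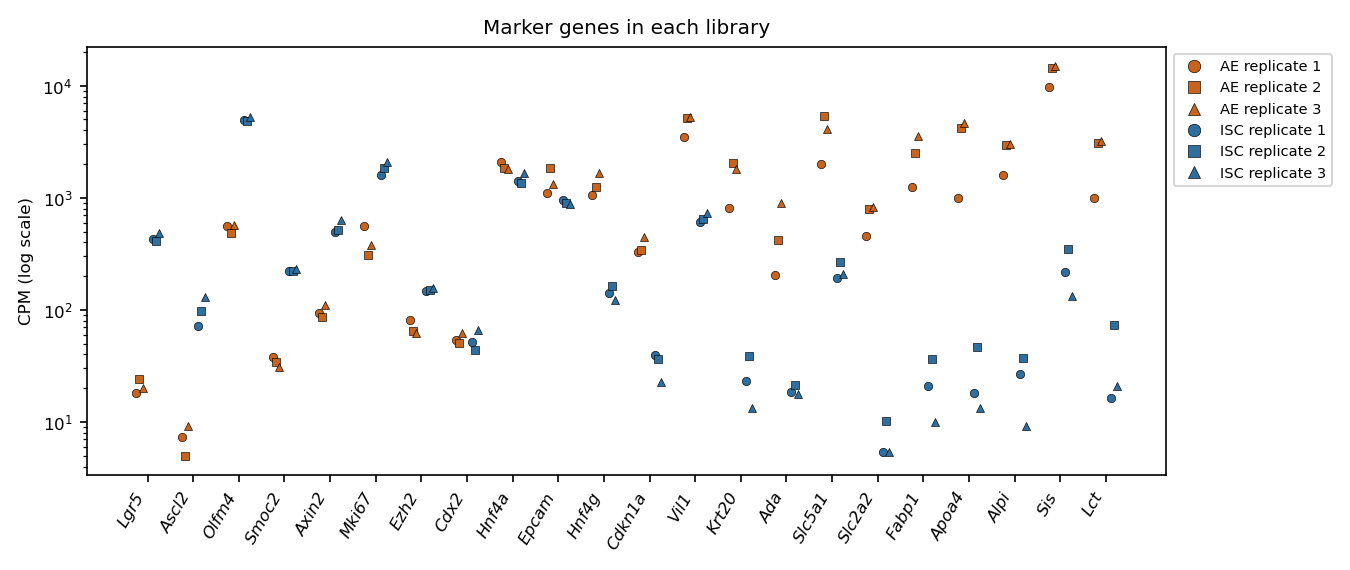
CPM (log scale) of stem cell, proliferation, transcription factor and enterocyte genes, 1 point per library, AE left of ISC for each gene. The groups do not overlap for Lgr5, Ascl2, Olfm4, Smoc2, Axin2 and Mki67 (lower in AE) or for Hnf4g, Vil1, Krt20, Ada, Alpi, Sis and Lct (higher in AE); they overlap for Cdx2, and AE replicate 1 (circles) is the lowest AE library for Krt20, Fabp1, Apoa4, Alpi, Sis and Lct.

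Genes of DNA replication and mitosis were lower in AE but stayed counted. Of 46 tested, 43 were lower and 0 higher in AE, with a median of -1.498. Mki67, a protein of cycling nuclei, had 565, 309 and 381 CPM in AE, against 1603, 1855 and 2103 CPM in ISC (log2 fold change -2.15, SE 0.25, edgeR adjusted p = 6.87e-05). Pole, the catalytic subunit of DNA polymerase epsilon, had 38.4, 17.96 and 22.4 CPM in AE, against 130.5, 153 and 144 CPM in ISC (log2 fold change -2.43, SE 0.26, edgeR adjusted p = 3.96e-05). The mitotic motor Cenpe changed by -2.07 and the condensin subunit Ncaph by -2.01. Among the 3 members that did not pass the test were Pcna, the sliding clamp of DNA replication (-0.24, edgeR adjusted p = 0.286), and Rrm2, a subunit of ribonucleotide reductase (-0.38, edgeR adjusted p = 0.28). AE replicate 1 was the AE library nearest to ISC, with a median difference of -1.001 in AE replicate 1, -1.81 in replicate 2 and -1.71 in replicate 3. Without AE replicate 1, 44 were lower and 0 higher, with a median log2 fold change of -1.80, and Mki67 changed by -2.44.

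Inhibitors of the cell cycle rose in AE. Of 16 genes of cell-cycle exit tested, 11 were higher and 2 lower, with a median of 1.66. Mxd1, a repressor that competes with Myc for the partner Max, had 263, 1198 and 1034 CPM in AE, against 22.3, 30.2 and 24.7 CPM in ISC (log2 fold change 5.01, SE 0.52, edgeR adjusted p = 3.20e-05). Cdkn2b, an inhibitor of CDK4 and CDK6, had 58.7, 48.7 and 58.9 CPM in AE, against 1.15, 2.34 and 1.04 CPM in ISC (log2 fold change 5.203, SE 0.30, edgeR adjusted p = 1.99e-06). Cdkn1a, the p21 inhibitor, had 331, 345 and 446 CPM in AE, against 39.4, 36.8 and 22.6 CPM in ISC (log2 fold change 3.51, SE 0.24, edgeR adjusted p = 3.82e-06). No AE library overlapped the ISC libraries in these 3 genes, though AE replicate 1 was far below the other AE libraries for Mxd1. Without AE replicate 1, Mxd1 changed by 5.42. In contrast, Cdkn1b, the p27 inhibitor, and the antiproliferative gene Btg2 were lower in AE (-0.60 and -0.64), and the call of Btg2 was lost without AE replicate 2 (-0.45), AE replicate 3 (-0.59), ISC replicate 1 (-0.40) or ISC replicate 2 (-0.73).

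Genes that build ribosomes fell. Of 33 ribosome biogenesis genes tested, 31 were lower and 0 higher in AE, with a median of -1.43. Nop56, a core protein of small nucleolar ribonucleoproteins, had 89.3, 38.6 and 50.2 CPM in AE, against 220.2, 294 and 336 CPM in ISC (log2 fold change -2.25, SE 0.30, edgeR adjusted p = 1.47e-04). Polr1a, the largest subunit of RNA polymerase I, changed by -2.12, its partner Polr1e by -2.07, and Utp20, a processing factor of the small subunit, by -2.09. Rrn3, which recruits RNA polymerase I, and Bop1, a factor of the large subunit, did not pass the test (-0.22, edgeR adjusted p = 0.258, and -0.28, edgeR adjusted p = 0.18). The median difference from ISC was -0.99 in AE replicate 1, -1.55 in replicate 2 and -1.71 in replicate 3.

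Transcription factors of the intestine did not move as a block. Of 37 tested, 18 were higher and 4 lower in AE, with a median of 0.38, beside 33.2% higher and 33.3% lower over all genes tested. With upper-quartile scaling 15 were higher and 9 lower. The paralogs Hnf4a and Hnf4g, nuclear receptors that bind many enterocyte genes, differed in their values: Hnf4g had 1064, 1243 and 1677 CPM in AE, against 142, 162 and 122 CPM in ISC (log2 fold change 3.23, SE 0.23, edgeR adjusted p = 4.37e-06), while Hnf4a had 2097, 1861 and 1800.4 CPM in AE, against 1417, 1354 and 1660.1 CPM in ISC (log2 fold change 0.38, SE 0.19, edgeR adjusted p = 0.1). The AE and ISC libraries did not overlap in either gene, but the change of Hnf4a did not pass the threshold. Cdx2, the homeobox factor of intestinal identity, had 53.8, 50.7 and 61.9 CPM in AE, against 51.9, 44.2 and 66.3 CPM in ISC (log2 fold change 0.03, SE 0.18, edgeR adjusted p = 0.875), with overlapping groups. The groups of values for Gata4 and Gata6, which encode factors of the proximal intestine, did not differ past the threshold (0.44, edgeR adjusted p = 0.0509, and 0.21, edgeR adjusted p = 0.232).

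Other transcription factors of the same list changed strongly. Maf, a basic leucine zipper factor, had 124, 288 and 275 CPM in AE, against 7.38, 8.87 and 4.07 CPM in ISC (log2 fold change 5.09, SE 0.40, edgeR adjusted p = 7.55e-06). Creb3l3, a factor of lipid handling that is released from the endoplasmic reticulum membrane, had 225, 385 and 514 CPM in AE, against 17.9, 24.0 and 8.45 CPM in ISC (log2 fold change 4.48, SE 0.43, edgeR adjusted p = 2.06e-05). Prdm1, which encodes Blimp1, a repressor that in the mouse holds back adult enterocyte genes before weaning, rose by 3.73, and the receptors of fatty acids and bile acids Pparg, Ppara and Nr1h4 by 2.12, 1.29 and 1.38. Among the 4 members that fell were Ehf (-1.39), Zfp36l1 (-1.33) and Cdx1 (-0.63). Sequence shared with other genes exceeded 20% of the transcript for Zfp36l1 (54.4%).

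Motif letters of these factors were searched in the 250 bases before the start of each gene, in RefSeq promoters of build GRCm38.p6, on both strands, for the 9805 of 13330 tested genes that matched the table. The HNF4 letters CAAAGTNCA were in 2.08% (44 of 2115) of promoters of genes higher in AE by a log2 fold change of at least 1, in 0.62% (12 of 1934) of those lower by as much, in 1.05% of all tested genes and in 1.21% of all 27025 promoters. The HNF1 letters GTTAATNAT were in 1.32% of promoters of higher genes, 0.207% of lower genes, 0.592% of all tested genes and 0.781% of all promoters. The CDX letters TTTATNG were in 7.8% of promoters of higher genes, 5.69% of lower genes, 6.51% of all tested genes and 10.2% of all promoters. For the GATA letters AGATAAG the shares were 2.51% of higher genes, 1.96% of lower genes, 1.73% of all tested genes and 2.78% of all promoters. The TCF/LEF letters CTTTGATC were in 0.378% of promoters of higher genes, 0.879% of lower genes, 0.673% of all tested genes and 0.792% of all promoters. The E2F letters TTTNGCGC were in 1.18% of promoters of higher genes, 2.48% of lower genes, 2.07% of all tested genes and 1.15% of all promoters. These shares are descriptions of letters in a window, with no test, and a match is not a binding site.

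The promoters of 4 enterocyte genes and 1 replication gene, chosen after their matches were seen, show where the letters lay. Each sequence is the 250 bases before the gene's start, 5′ to 3′ on the gene's strand, from RefSeq (GRCm38.p6), with matched letters in capitals. Alpi (chr1:87101607-87101856, minus strand), an intestinal alkaline phosphatase, held CDX and HNF4 letters beginning 33 and 19 bases before the start. Fabp2 (chr3:122894822-122895071, plus strand), an intestinal fatty acid binding protein, held HNF4 letters at 137 and CDX letters at 65 bases before the start. Fabp1 (chr6:71199629-71199878, plus strand), a fatty acid binding protein, held CDX letters at 227, 133 and 89 bases before the start. Apoa4 (chr9:46240594-46240843, plus strand), an apolipoprotein of chylomicrons, held HNF4 letters at 182 bases before the start. Mcm6 (chr1:128359706-128359955, minus strand), a subunit of the replicative helicase, held E2F letters at 110, 106 and 47 bases before the start, of which the first and second overlap on opposite strands.
Alpi: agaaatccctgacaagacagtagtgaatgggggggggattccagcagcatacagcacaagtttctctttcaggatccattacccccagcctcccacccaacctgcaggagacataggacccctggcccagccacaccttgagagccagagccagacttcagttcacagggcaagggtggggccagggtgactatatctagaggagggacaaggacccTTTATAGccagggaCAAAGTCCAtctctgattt
Fabp2: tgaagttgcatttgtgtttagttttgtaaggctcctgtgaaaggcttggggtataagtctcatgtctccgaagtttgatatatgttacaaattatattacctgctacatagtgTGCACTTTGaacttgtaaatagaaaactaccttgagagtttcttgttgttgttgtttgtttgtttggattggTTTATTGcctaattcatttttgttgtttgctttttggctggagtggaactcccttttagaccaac
Fabp1: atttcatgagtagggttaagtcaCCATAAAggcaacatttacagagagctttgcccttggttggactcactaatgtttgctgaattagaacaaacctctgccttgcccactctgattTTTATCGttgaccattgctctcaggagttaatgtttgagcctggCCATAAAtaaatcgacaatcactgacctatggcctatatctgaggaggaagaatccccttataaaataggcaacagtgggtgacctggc
Apoa4: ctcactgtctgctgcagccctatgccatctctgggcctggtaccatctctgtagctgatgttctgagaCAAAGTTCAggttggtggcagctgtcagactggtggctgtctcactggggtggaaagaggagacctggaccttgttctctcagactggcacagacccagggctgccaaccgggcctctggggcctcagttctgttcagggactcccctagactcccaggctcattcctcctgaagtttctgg
Mcm6: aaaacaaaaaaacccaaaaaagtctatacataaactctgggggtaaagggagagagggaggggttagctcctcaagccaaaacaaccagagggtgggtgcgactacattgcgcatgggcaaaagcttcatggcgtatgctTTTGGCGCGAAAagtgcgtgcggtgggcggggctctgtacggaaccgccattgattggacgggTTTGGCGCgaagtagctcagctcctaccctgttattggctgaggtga

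All 25 brush border genes tested, most of them hydrolases, were higher in AE, with a median log2 fold change of 5.67. Sis, which encodes sucrase-isomaltase, had 9706, 14352 and 14828 CPM in AE, against 219, 351 and 133 CPM in ISC (log2 fold change 5.79, SE 0.44, edgeR adjusted p = 6.27e-06). Alpi, whose promoter is printed above, had 1584, 2930.1 and 3041 CPM in AE, against 26.5, 37.0 and 9.30 CPM in ISC (log2 fold change 6.70, SE 0.56, edgeR adjusted p = 9.60e-06). Lct, the lactase of milk sugar digestion, had 1004, 3069 and 3215 CPM in AE, against 16.2, 74.0 and 20.9 CPM in ISC (log2 fold change 6.03, SE 0.72, edgeR adjusted p = 7.24e-05), and 7.02 without ISC replicate 2, the highest ISC library. AE replicate 1 was the lowest of the AE libraries in all 3 genes and still lay above every ISC library. Nt5e, an ectonucleotidase that makes adenosine, rose by 7.78, and Enpp3, a nucleotide pyrophosphatase, by 7.56. Peptidases of the membrane rose as well: Ace by 5.67 (6.39 without ISC replicate 2), Anpep by 4.74, Mme by 4.04 and Dpp4 by 2.49. The median difference from ISC over the list was 4.62 in AE replicate 1, 5.88 in replicate 2 and 6.09 in replicate 3.

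Sugar transport and use rose in 15 of 16 genes tested, with a median of 4.32. Slc5a1, the sodium-dependent glucose transporter SGLT1 of the brush border, had 1994, 5408 and 4078 CPM in AE, against 191, 265 and 208 CPM in ISC (log2 fold change 4.11, SE 0.38, edgeR adjusted p = 1.64e-05). Slc2a2, the basolateral glucose transporter GLUT2, had 457, 788 and 835 CPM in AE, against 5.41, 10.2 and 5.42 CPM in ISC (log2 fold change 6.63, SE 0.37, edgeR adjusted p = 1.99e-06). Slc2a5, the fructose transporter GLUT5, rose by 5.23, and Khk, the first enzyme of fructose breakdown, by 4.10. G6pc and Fbp1, enzymes of gluconeogenesis, rose by 5.71 and 1.93. Slc2a1, the GLUT1 transporter of many dividing cells, was the 1 member that did not pass the test (-0.05, edgeR adjusted p = 0.851).

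Amino acid transporters split into 2 groups. Of 22 tested, 16 were higher and 4 lower in AE, with a median of 2.57. Slc15a1, the proton-coupled peptide transporter PEPT1, had 298, 869.8 and 828 CPM in AE, against 5.09, 17.2 and 3.11 CPM in ISC (log2 fold change 6.30, SE 0.71, edgeR adjusted p = 5.15e-05), and 7.35 without ISC replicate 2. Slc6a19, the neutral amino acid transporter B0AT1, rose by 6.65 (7.31 without ISC replicate 2), and Slc43a2, a transporter of large neutral amino acids, by 5.49. Lower in AE were Slc1a5, a glutamine transporter, with 37.3, 25.6 and 20.1 CPM in AE, against 141, 184 and 167 CPM in ISC (log2 fold change -2.56, SE 0.23, edgeR adjusted p = 1.51e-05), the leucine exchanger Slc7a5 (-2.25), the glutamine transporter Slc38a1 (-1.21) and Slc1a2, described above. Slc3a2, the heavy chain that pairs with Slc7a5 and with other light chains, rose (1.90).

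Of 39 genes of lipid absorption and chylomicron assembly tested, 34 were higher and 0 lower in AE, with a median of 3.20. Fabp1 had 1251, 2529 and 3565 CPM in AE, against 20.9, 36.4 and 9.95 CPM in ISC (log2 fold change 6.77, SE 0.60, edgeR adjusted p = 1.29e-05), and Fabp2 3130.0, 9250.4 and 12239.8 CPM in AE, against 181, 312 and 149 CPM in ISC (log2 fold change 5.26, SE 0.56, edgeR adjusted p = 3.49e-05). Apoa4 had 999, 4201 and 4691 CPM in AE, against 18.2, 46.4 and 13.3 CPM in ISC (log2 fold change 6.99, SE 0.75, edgeR adjusted p = 3.76e-05), and 7.71 without ISC replicate 2; 60.9% of its transcript sequence was shared with other genes, so its counts are uncertain. Apoa1, the chief apolipoprotein of high-density lipoprotein, had 1925, 6830.3 and 5485 CPM in AE, against 24.4, 89.1 and 19.4 CPM in ISC (log2 fold change 6.74, SE 0.77, edgeR adjusted p = 5.41e-05), and 7.76 without ISC replicate 2. The lipid steps from uptake to export rose together: the fatty acid transporter Slc27a4 by 4.93, the cholesterol transporter Npc1l1 by 4.80, the triglyceride enzymes Mogat2 and Dgat2 by 5.84 and 4.30, and Mttp, which loads lipid onto Apob, by 4.66. Apob itself rose by 3.68. With upper-quartile scaling 34 were higher and 1 was lower, and without AE replicate 1, 37 were higher and 0 lower.

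Bile acid handling rose in 9 of 11 genes tested. The basolateral exporter subunits Slc51a and Slc51b rose by 4.74 and 4.88. The ileal genes Fabp6, a bile acid binding protein, and Slc10a2, the apical bile acid transporter, varied among AE libraries. Fabp6 had 102, 444 and 69.3 CPM in AE, against 14.7, 12.2 and 3.30 CPM in ISC (log2 fold change 4.36, SE 0.78, edgeR adjusted p = 8.27e-04), and Slc10a2 7.02, 29.6 and 4.28 CPM in AE, against 0.875, 1.24 and 0.346 CPM in ISC (log2 fold change 4.08, SE 0.76, edgeR adjusted p = 0.00111). AE replicate 2 was the highest, and without it their log2 fold changes were 3.11 and 2.84. The labels give the tissue as small intestine and name no segment.

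Transporters of minerals, vitamins, ions and water were mostly higher in AE. Of 26 mineral and vitamin genes tested, 18 were higher and 2 lower, and none was lower without AE replicate 3, ISC replicate 1 or ISC replicate 2. Of 27 ion and water genes, 21 were higher and 6 lower. Slc30a10, an exporter of manganese, rose by 7.45, Slc40a1, the iron exporter ferroportin, by 5.77, and Slc46a1, the folate transporter, by 5.32. The iron uptake transporter Slc11a2 rose by 2.15, and the receptor Tfrc, which takes up transferrin, did not pass the test (-0.22, edgeR adjusted p = 0.343). Slc9a3, the sodium-hydrogen exchanger NHE3 of absorption, had 149.6, 136 and 219 CPM in AE, against 4.05, 2.81 and 1.46 CPM in ISC (log2 fold change 5.94, SE 0.37, edgeR adjusted p = 2.46e-06). Slc12a2, the NKCC1 cotransporter that loads chloride for secretion, had 541, 367 and 408 CPM in AE, against 3063, 3069 and 3543 CPM in ISC (log2 fold change -2.88, SE 0.23, edgeR adjusted p = 7.39e-06). Cftr, the apical chloride channel, changed by -1.02, while Ano1, a calcium-activated chloride channel, rose by 1.64, and the call of Ano1 was lost without AE replicate 1 (0.98). Kcnq1 and its partner Kcne3, which form a basolateral potassium channel, changed by -2.68 and -2.22, and the water channel Aqp1 by -0.93, and the call of Aqp1 was lost without AE replicate 3 (-0.99), ISC replicate 1 (-0.96), ISC replicate 2 (-0.85) or ISC replicate 3 (-0.98). Of the other water channels Aqp4 fell (-2.76) and Aqp7, which also passes glycerol, rose (7.63, and 6.94 without AE replicate 3 or 8.41 without ISC replicate 3).

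The microvillus and its anchorage rose in 29 of 33 genes tested and fell in 3, with a median of 1.97. Vil1, the actin bundler villin, had 3453, 5106 and 5212 CPM in AE, against 608, 649 and 734 CPM in ISC (log2 fold change 2.79, SE 0.24, edgeR adjusted p = 1.25e-05). Espn, another bundler, rose by 4.36, the motor Myo1a, which ties the actin core to the membrane, by 3.28, and the protocadherins Cdhr2 and Cdhr5, which link neighbouring microvilli, by 3.74 and 3.87. Keratins moved apart: Krt20 had 805, 2042 and 1817 CPM in AE, against 23.1, 38.7 and 13.2 CPM in ISC (log2 fold change 5.96, SE 0.51, edgeR adjusted p = 1.12e-05), while Krt18 fell by 0.92. The bundler Pls3 fell (-2.33) and its relative Pls1 rose (3.67). Of 25 junction genes tested, 15 were higher and 2 lower in AE, beside 33.2% higher and 33.3% lower over all genes tested. The median of these junction genes was 0.66. The count higher was 12 with upper-quartile scaling or without ISC replicate 2, and 17 with relative log expression scaling. Cdh17, an intestinal cadherin, was at 1.92 and Cldn15, a cation channel of tight junctions, at 1.55. The 2 that fell were the claudins Cldn2 (-1.24) and Cldn8 (-1.89). Epcam, the surface protein of the AE gate, had 1112, 1841 and 1335 CPM in AE, against 946, 905 and 882 CPM in ISC (log2 fold change 0.65, SE 0.21, edgeR adjusted p = 0.0226), and its call was lost without AE replicate 2 (0.43), ISC replicate 1 (0.67), ISC replicate 2 (0.64) or ISC replicate 3 (0.62).

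Enterocyte genes of all 3 villus zones known from mouse zonation studies were mostly higher in AE. The zone lists share members with the lists above, such as Nt5e, Enpp3 and Apoa4 of the tip and Fabp1, Slc2a2 and Slc6a19 of the middle. Their counts are therefore not separate from those of the earlier lists. Of the villus base list 13 of 14 tested were higher and 0 lower (median 4.60), of the middle list 19 of 19 (median 5.26), and of the tip list 19 of 26 higher and 3 lower (median 3.60). Ada, adenosine deaminase of the tip, had 205, 418 and 906 CPM in AE, against 18.6, 21.6 and 17.7 CPM in ISC (log2 fold change 4.72, SE 0.49, edgeR adjusted p = 3.25e-05), and 4.02 without AE replicate 3. The tip genes that fell were Atf3, Egfr and Fos (-1.65, -0.84 and -0.78), and the call of Fos was lost without AE replicate 2 (-0.56), AE replicate 3 (-0.75), ISC replicate 1 (-0.62) or ISC replicate 2 (-0.78). Atf3 is described with the stress genes below. Reg3b, an antimicrobial lectin of the base, had 659, 2517 and 626 CPM in AE, against 89.3, 28.2 and 37.4 CPM in ISC (log2 fold change 4.62, SE 0.66, edgeR adjusted p = 2.26e-04), 3.65 without AE replicate 2 and 5.27 without ISC replicate 1, and Reg3g had 623, 1134 and 285 CPM in AE, against 71.3, 27.2 and 28.5 CPM in ISC. The zone lists differed in which AE library stood lowest. Replicate 1 was lowest for the middle list, at 4.11 in AE replicate 1, 5.51 in replicate 2 and 5.73 in replicate 3, and for the tip list, at 2.71 in AE replicate 1, 3.60 in replicate 2 and 3.62 in replicate 3, and replicate 3 for the base list, at 4.05 in AE replicate 1, 4.79 in replicate 2 and 3.65 in replicate 3.

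**Figure D3:**
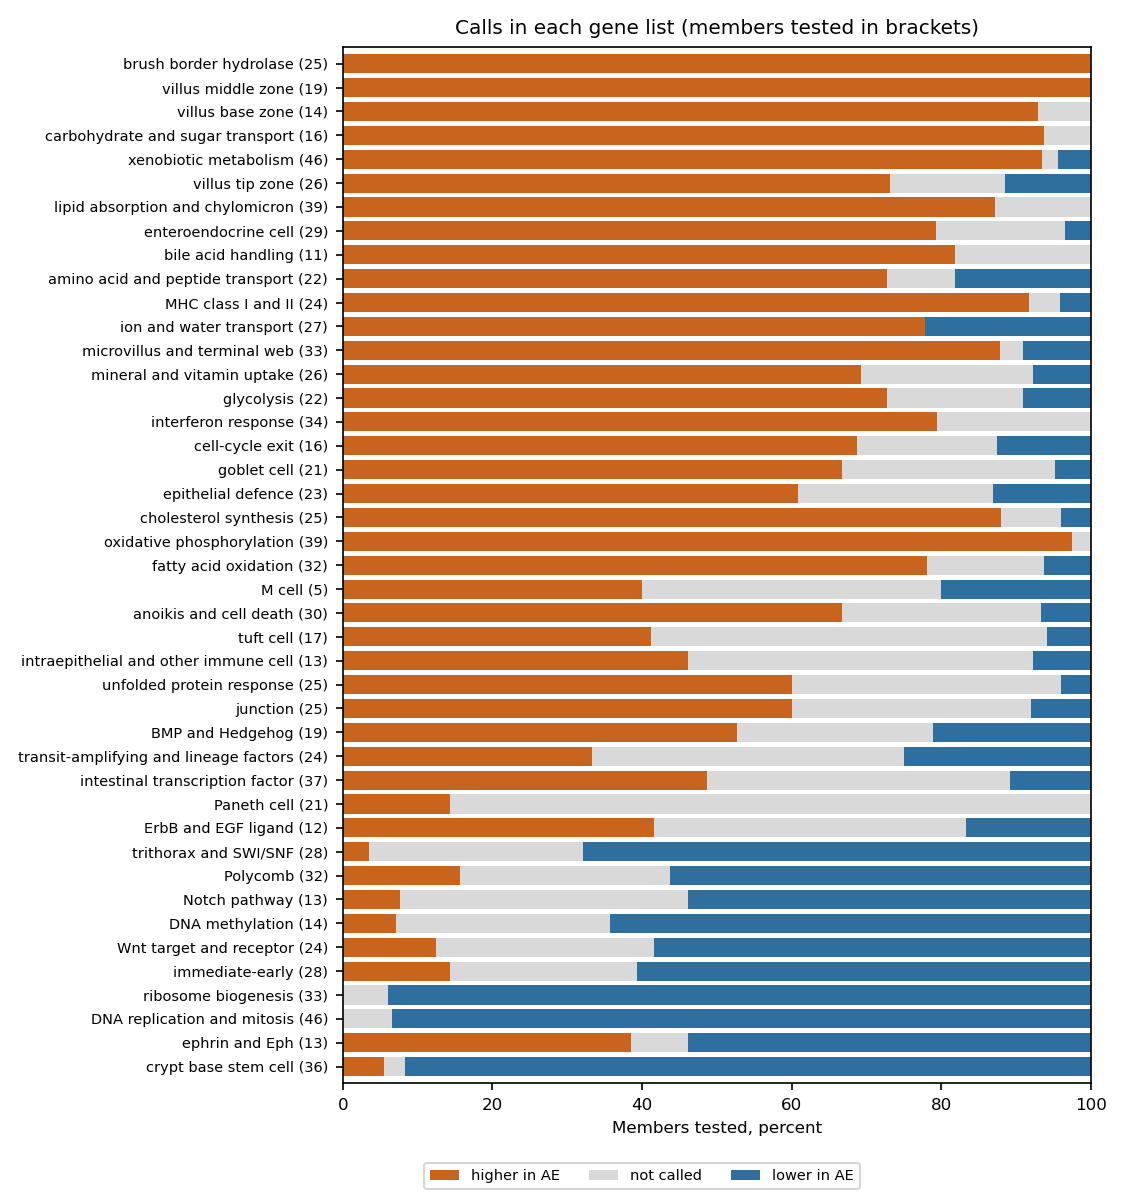
Share of the tested members of each gene list called higher in AE (orange), not called (grey) and lower in AE (blue) in edgeR's quasi-likelihood test, with the number of members tested in brackets, for lists with at least 5 tested. Over all genes tested 33.2% were higher and 33.3% lower in AE; all 25 brush border and all 19 villus middle genes were higher, and 33 of 36 stem cell genes were lower.

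Drug and toxin metabolism rose in 43 of 46 genes tested and fell in 2, with a median of 3.89. Only 6 of the 46 shared no 50-base stretch with another gene, and these 6 were higher in AE. Cyp3a11, a broad oxidase of drugs and steroids, had 170.2, 838 and 605 CPM in AE, against 3.17, 8.02 and 1.498 CPM in ISC (log2 fold change 6.999, SE 0.77, edgeR adjusted p = 4.48e-05), and 7.87 without ISC replicate 2. The cytochromes Cyp2c66 and Cyp2d26 rose by 6.86 and 4.82 (5.43 for Cyp2d26 without ISC replicate 2), and Aldh1a1, which makes retinoic acid, by 5.92. Gsta1 rose by 8.23, but 90.5% of its sequence was shared with other glutathione transferases and its counts are uncertain. The 2 members that fell were Cyp2e1, which oxidises ethanol, with 4.57, 2.86 and 3.77 CPM in AE, against 54.4, 42.9 and 54.9 CPM in ISC (log2 fold change -3.74, SE 0.22, edgeR adjusted p = 2.12e-06), and the carboxylesterase Ces1d (-1.05). The sulfotransferase Sult1c2 did not pass the test (-0.09, edgeR adjusted p = 0.815).

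Genes of the respiratory chain rose by less but in nearly every listed member. No gene entry carried the mt- prefix of mitochondrially encoded genes, so the list did not cover those subunits. Of 39 oxidative phosphorylation genes tested, 38 were higher and 0 lower, with a median of 1.29. Sdhb, an iron-sulfur subunit of complex II, had 141, 197 and 159 CPM in AE, against 56.8, 46.3 and 30.1 CPM in ISC (log2 fold change 1.90, SE 0.24, edgeR adjusted p = 9.23e-05). Ndufa1 of complex I and Cox6a1 of complex IV rose by 1.95 and 1.88, and Cox8a did not pass the test (0.39, edgeR adjusted p = 0.229). Fatty acid oxidation rose in 25 of 32 genes tested and fell in 2. Acadm of the mitochondrial pathway rose by 1.62.

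Glycolysis rose in 16 of 22 genes tested and fell in 2, with a median of 1.73. Pfkp, a phosphofructokinase, had 401, 432 and 357 CPM in AE, against 27.8, 27.0 and 24.0 CPM in ISC (log2 fold change 3.92, SE 0.16, edgeR adjusted p = 1.46e-06). Slc16a3, a lactate exporter, rose by 4.30 and Ldha, a lactate dehydrogenase, by 2.57. Isozymes moved apart: Hk1 rose (2.49) and Hk2 fell (-1.40). Ldhb, counted with 21.0% shared sequence, fell by 2.38. Cholesterol synthesis rose in 22 of 25 genes tested and fell in 1, with a median of 1.45. Without AE replicate 1, 20 rose and 1 fell, with a median of 1.17. Sc5d, a late desaturase, rose by 2.39, and Sc4mol, the older symbol of the methylsterol oxidase Msmo1, by 2.84. Here AE replicate 1 was farthest from ISC, with a median difference of 1.52 in AE replicate 1, 1.13 in replicate 2 and 0.92 in replicate 3.

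The AE libraries held more goblet and enteroendocrine transcripts than the ISC libraries. The summed level of the goblet list was 21069, 29938 and 17636 CPM in AE, against 1387, 1701 and 1258 CPM in ISC, and that of the enteroendocrine list 1836, 2663 and 2633 CPM in AE, against 204, 241 and 158 CPM in ISC. Of 21 goblet genes tested, 14 were higher and 1 lower in AE, and of 29 enteroendocrine genes, 23 were higher and 1 lower. Muc2, the secreted mucin of goblet cells, had 6631, 8724 and 5938 CPM in AE, against 521, 669 and 513 CPM in ISC (log2 fold change 3.65, SE 0.27, edgeR adjusted p = 4.97e-06), and Fcgbp, a mucus protein, rose by 4.77. Tff3, a trefoil peptide of mucus, rose by 4.52. Clca3, the older symbol of the goblet gene Clca1, rose by 5.14, while the gene listed as Clca1, an older symbol of another family member, fell by 2.72. The part of secretory cells in the AE results was not tested.

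Among enteroendocrine genes the hormones and granule proteins were higher in AE and an early factor was lower. Gip, the incretin hormone of K cells, had 138, 529 and 314 CPM in AE, against 2.24, 1.48 and 1.34 CPM in ISC (log2 fold change 7.61, SE 0.54, edgeR adjusted p = 4.36e-06). Chga, a granule protein, had 66.7, 61.4 and 94.8 CPM in AE, against 4.32, 5.34 and 3.84 CPM in ISC (log2 fold change 4.04, SE 0.23, edgeR adjusted p = 1.99e-06). Sct, which encodes secretin, rose by 7.17, and Ghrl, which encodes ghrelin, by 4.29. Sst, which encodes somatostatin, rose by 6.81, by 6.22 without AE replicate 3 and by 7.43 without ISC replicate 1. Neurog3, the transient factor of endocrine progenitors, had 2.57, 1.03 and 2.85 CPM in AE, against 5.80, 6.77 and 3.61 CPM in ISC (log2 fold change -1.32, SE 0.39, edgeR adjusted p = 0.0144), and its call was lost without ISC replicate 2 (-1.13). Neurod1 and Pax6, which follow it, rose by 2.82 and 2.88. Atoh1, the factor of secretory fate, rose by 2.23.

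Paneth cell genes differed little and depended on AE replicate 1. The summed level was 6853, 3922 and 3717 CPM in AE, against 3247, 3871 and 2206 CPM in ISC. Of 21 genes tested, 3 were higher and 0 lower in AE (Guca2b, which encodes uroguanylin and is known from villus cells too, the pentraxin Mptx1, and Clps, which encodes colipase), with a median of 0.29; without AE replicate 1, 1 was higher and 1 lower, and in AE replicate 1 alone against ISC, 5 were higher and 0 lower. The call of Mptx1 was lost without AE replicate 1 (0.77), AE replicate 3 (1.42), ISC replicate 1 (1.10) or ISC replicate 3 (1.16), and the call of Clps was lost without AE replicate 1 (0.90), AE replicate 2 (1.03), AE replicate 3 (0.99) or ISC replicate 1 (1.08). Lyz1, the lysozyme of Paneth granules, had 5508, 2313 and 2224 CPM in AE, against 2504, 3112 and 1844 CPM in ISC (log2 fold change 0.43, SE 0.37, edgeR adjusted p = 0.329), a log2 fold change of -0.15 without AE replicate 1 and 1.14 in AE replicate 1 alone. Mptx2, a pentraxin of Paneth cells, had 189, 62.9 and 51.2 CPM in AE, against 85.2, 36.4 and 47.6 CPM in ISC (log2 fold change 0.85, SE 0.48, edgeR adjusted p = 0.141), and 0.00 without AE replicate 1. Most defensins of the list shared over 20% of their sequence with other genes, so their counts are uncertain. Of 17 tuft cell genes tested, 7 were higher and 1 lower in AE, beside 33.2% higher and 33.3% lower over all genes tested. The higher share was thus near that over all genes, and of the 7, Ptprc is also a gene of leukocytes. Dclk1, a tuft cell kinase, rose by 1.28, and Pou2f3, the factor that tuft cells require, fell by 1.22.

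Markers of cells outside the epithelium were low. The immune list, of which 13 of 28 entries passed the filter, summed to 55.5, 63.3 and 46.8 CPM in AE, against 33.1, 33.6 and 30.7 CPM in ISC. A large part of the sum in each of the 6 libraries came from Itgam, an integrin of myeloid cells, with 37.9, 31.2 and 22.9 CPM in AE, against 16.4, 17.4 and 17.7 CPM in ISC, but 66.3% of its sequence was shared with other genes and its counts are uncertain. Of the 13, 6 were higher and 1 lower in AE, beside 33.2% higher and 33.3% lower over all genes tested. The lower one was Itgae, an integrin of intraepithelial lymphocytes, with 3.86, 3.37 and 2.95 CPM in AE, against 6.02, 7.54 and 6.91 CPM in ISC (log2 fold change -0.99, SE 0.23, edgeR adjusted p = 0.00422). Ptprc, which encodes the CD45 protein that the AE gate excluded, had 1.27, 2.27 and 1.32 CPM in AE, against 0.109, 0.429 and 0.346 CPM in ISC (log2 fold change 2.39, SE 0.51, edgeR adjusted p = 0.00239), and Cd3e of the T cell receptor complex had 0.773, 2.49 and 2.85 CPM in AE, against 0.547, 0.620 and 0.154 CPM in ISC, and the call of Cd3e was lost without AE replicate 3 (1.85). Of 20 mesenchyme and muscle entries 3 passed the filter, and 2 of them were higher in AE. Tagln, an actin-binding protein of smooth muscle, had 8.44, 11.1 and 7.64 CPM in AE, against 3.94, 3.58 and 3.27 CPM in ISC (log2 fold change 1.33, SE 0.23, edgeR adjusted p = 7.61e-04), and 58.4% of its sequence was shared with other genes. Vim, a filament protein of mesenchyme and leukocytes, was higher by 1.10, though its call was lost without AE replicate 1 (0.86), AE replicate 3 (1.04), ISC replicate 1 (1.004) or ISC replicate 3 (0.93). The collagen genes Col1a1 and Col3a1 were at or near 0 in all 6 libraries. Of 11 endothelial entries 2 passed, Vwf and Esam, and both were lower in AE (-2.60 and -2.73). The ISC sort used EGFP and the AE sort excluded CD31 and CD45, so these differences stand beside different gates.

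**Figure D4:**
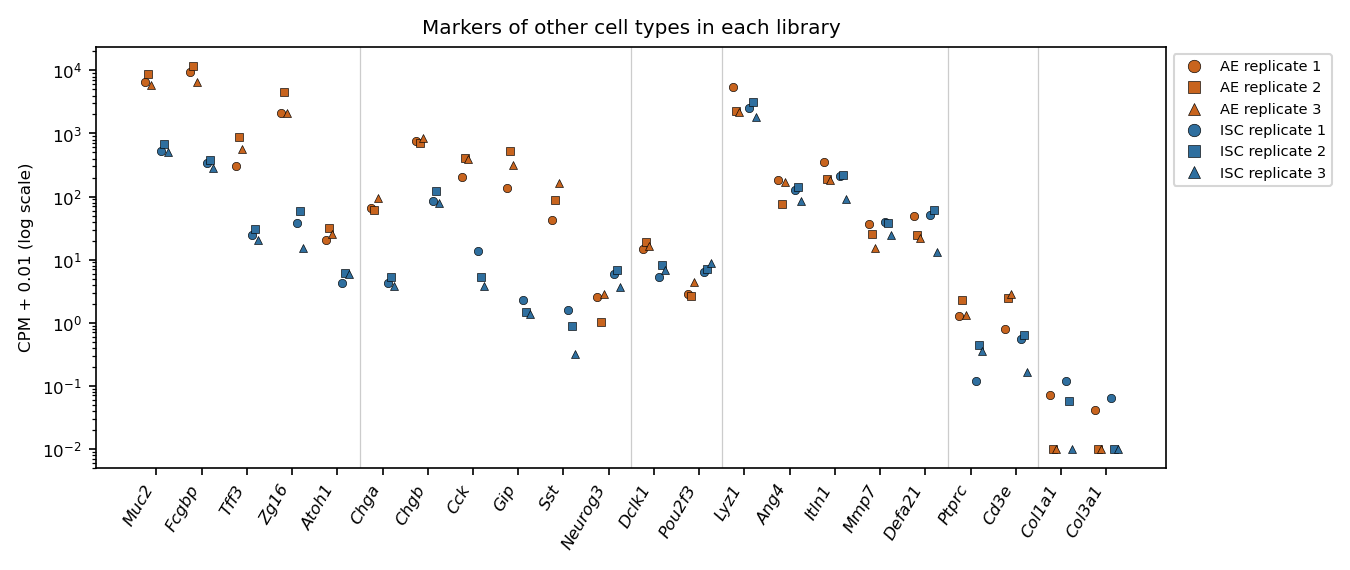
CPM plus 0.01 (log scale) of markers of goblet, enteroendocrine, tuft, Paneth, immune and mesenchymal cells, set apart by vertical lines, 1 point per library with AE left of ISC. The goblet genes Muc2 and Fcgbp and the hormones Gip and Sst lie higher in all 3 AE libraries; Lyz1 overlaps, with AE replicate 1 highest; Col1a1 and Col3a1 lie at or near 0.

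Antigen presentation and interferon genes rose in AE. Of 24 MHC class I and II genes tested, 22 were higher and 1 lower, with a median of 2.40. Only 4 of the 24 shared no 50-base stretch with another gene, and these 4 were higher in AE. Reads with several alignments were handled differently in the 2 groups, and the part of this in the other members was not tested. H2-Aa, an MHC class II chain, had 392, 851 and 1227 CPM in AE, against 94.9, 57.7 and 52.8 CPM in ISC (log2 fold change 3.59, SE 0.41, edgeR adjusted p = 6.03e-05). The class II invariant chain Cd74 rose by 1.85, the regulator Ciita by 1.31, and the class I chain H2-K1 and its partner B2m by 2.76 and 1.69. Cd1d1, which presents lipids to natural killer T cells, was the 1 member that fell (-2.61, and -3.25 without AE replicate 1). Of 34 interferon response genes tested, 27 were higher and 0 lower, with a median of 1.70. Zbp1, a sensor of Z-form nucleic acids, had 16.3, 31.3 and 40.7 CPM in AE, against 0.984, 1.002 and 0.691 CPM in ISC (log2 fold change 5.04, SE 0.38, edgeR adjusted p = 6.25e-06). Oas3 and Rsad2, antiviral effectors, rose by 5.72 and 4.69. Ifit1, another effector, rose by 6.27, and by 5.66 without AE replicate 3. Immune cell markers, whose summed level is given above, were also higher in AE, and their part in this result was not tested.

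Epithelial defence moved both ways. Of 23 genes tested, 14 were higher and 3 lower in AE. Reg1 and Reg3a, secreted lectins, rose by 7.15 and 5.77, and the cytokine Il18 by 4.58. Duox2, which makes hydrogen peroxide at the apical surface, rose by 1.48, and Pigr, which carries antibodies into the lumen, by 1.13. The 3 that fell were bacterial sensors: Nod1 (-1.88), Nod2 (-1.42) and Tlr2 (-1.44). Nlrp6, an inflammasome sensor, did not pass the test (-0.19, edgeR adjusted p = 0.367).

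Immediate-early genes were mostly lower in AE. Of 28 tested, 17 were lower and 4 higher, with a median of -1.32. Without AE replicate 1 the counts were 17 and 4 again, with a median of -1.33, and without ISC replicate 1, 11 were lower and 3 higher. Egr1, a zinc finger factor induced within minutes by growth factors and by stress, had 998, 255 and 476 CPM in AE, against 2584, 1914 and 1770.3 CPM in ISC (log2 fold change -1.86, SE 0.43, edgeR adjusted p = 0.00371), and -2.53 without AE replicate 1. Atf3, a stress-induced factor, had 383, 57.5 and 107 CPM in AE, against 795, 519.8 and 407 CPM in ISC (log2 fold change -1.65, SE 0.59, edgeR adjusted p = 0.0308), and -2.83 without AE replicate 1, but its call was lost without AE replicate 2 (-1.22), AE replicate 3 (-1.37) or ISC replicate 1 (-1.34). Egr2 changed by -2.14 (-3.27 without AE replicate 1), Egr3 by -3.92 (-4.52) and Nr4a1, an orphan nuclear receptor, by -3.73 (-4.75). The members that rose were Klf4, a factor of differentiated epithelium (2.19), Dusp6, a phosphatase of ERK kinases (2.39), Ier5 (1.08) and Fosl2 (0.60), and the call of Fosl2 was lost without AE replicate 2 (0.39), AE replicate 3 (0.57), ISC replicate 1 (0.67), ISC replicate 2 (0.52) or ISC replicate 3 (0.59). The median difference from ISC was -0.62 in AE replicate 1, -1.39 in replicate 2 and -1.33 in replicate 3. Of 25 unfolded protein response genes tested, 15 were higher and 1 lower in AE, beside 33.2% higher and 33.3% lower over all genes tested. Without AE replicate 1, 13 were higher and 2 lower, and without AE replicate 3, 20 were higher and 1 lower. With upper-quartile scaling 11 were higher and 3 lower. Edem1, which marks misfolded proteins for degradation, was at 1.73 and Asns, asparagine synthetase, at -1.07.

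Cell death genes rose in 20 of 30 tested and fell in 2. Fas, a death receptor, had 12.9, 22.4 and 29.6 CPM in AE, against 0.547, 1.10 and 1.15 CPM in ISC (log2 fold change 4.49, SE 0.39, edgeR adjusted p = 1.19e-05). Gsdmd, the pore-forming protein of pyroptosis, rose by 3.38, and the executioner caspase Casp6 by 2.01. Bcl2, which holds back apoptosis, fell, with 6.15, 5.79 and 7.84 CPM in AE, against 51.0, 63.5 and 66.8 CPM in ISC (log2 fold change -3.21, SE 0.19, edgeR adjusted p = 2.12e-06). Its relative Bcl2l1 rose by 1.21, and the pro-apoptotic Bax did not pass the test (0.38, edgeR adjusted p = 0.263).

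Chromatin regulators were more often lower than higher in AE, mostly by small amounts, and the counts depended on the fit. Of 32 Polycomb genes tested, 18 were lower and 5 higher, with a median of -0.52. The count lower was 15 without ISC replicate 2 and 23 with upper-quartile scaling. Ezh2, the methyltransferase that writes the repressive histone mark of Polycomb, had 81.5, 65.3 and 62.8 CPM in AE, against 149, 149.9 and 158 CPM in ISC (log2 fold change -1.12, SE 0.15, edgeR adjusted p = 1.27e-04). Its partner Eed changed by -0.55, while Suz12, another core partner, and the paralog Ezh1 did not pass the test (-0.08, edgeR adjusted p = 0.69, and -0.01, edgeR adjusted p = 0.947). Cbx6 and Cbx7, readers of the mark, changed by -2.37 and -1.79, and the accessory factor Phf19 by -2.02. Rybp, a subunit of the ubiquitin-writing Polycomb complex, rose (0.94), as did Kdm6b, which erases the mark (0.70).

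DNA methylation genes were lower in 9 of 14 tested and higher in 1. Dnmt1, the maintenance methyltransferase, had 123, 77.7 and 82.4 CPM in AE, against 329, 333 and 323 CPM in ISC (log2 fold change -1.80, SE 0.19, edgeR adjusted p = 3.83e-05). Tet1, which oxidises methylcytosine, had 5.25, 5.50 and 5.09 CPM in AE, against 37.8, 37.6 and 46.6 CPM in ISC (log2 fold change -2.94, SE 0.17, edgeR adjusted p = 2.12e-06), while Tet2 and Tet3 did not pass the test (0.11, edgeR adjusted p = 0.509, and 0.30, edgeR adjusted p = 0.0915). Dnmt3b changed by -1.72, and Dnmt3a did not pass the test (0.05, edgeR adjusted p = 0.738). Of 28 trithorax and SWI/SNF genes tested, 19 were lower and 1 higher, with a median of -0.49. The count lower was 13 without ISC replicate 2 and 14 without AE replicate 2 or AE replicate 3. It was 16 with relative log expression scaling and 22 with upper-quartile scaling. Mll1, the older symbol of the methyltransferase gene Kmt2a, changed by -1.42, Smarcc1, a core subunit of SWI/SNF remodellers, by -1.64, and Smarca4, a motor subunit, by -0.94. The demethylase Kdm5b was the 1 member that rose (0.77).

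Signalling genes that place cells along the crypt and villus moved both ways. Of 13 ephrin and Eph genes tested, 5 were higher and 7 lower in AE, beside 33.2% higher and 33.3% lower over all genes tested. The receptor Ephb3, which keeps cells in the crypt, had 7.63, 5.42 and 7.43 CPM in AE, against 44.5, 49.0 and 44.8 CPM in ISC (log2 fold change -2.75, SE 0.18, edgeR adjusted p = 3.02e-06), and Ephb2 changed by -1.80. Their ligand Efnb2 had 263, 231 and 231 CPM in AE, against 21.4, 20.6 and 20.1 CPM in ISC (log2 fold change 3.55, SE 0.14, edgeR adjusted p = 1.46e-06), and Efnb1 rose by 0.77. Of 19 BMP and Hedgehog genes tested, 10 were higher and 4 lower. Ihh, the ligand that epithelium sends to mesenchyme, rose by 2.35, and the receptor and target Ptch1 fell (-2.30). Bmp2 rose by 2.89 and Bmp7 fell by 2.60, and the targets Id2 and Smad7 rose by 1.42 and 1.75. Of 12 ErbB genes tested, 5 were higher and 2 lower, so the higher share was near that over all genes: Egfr fell by 0.84, Erbb2 and Erbb3 rose by 0.73 and 0.88, and the ligands Ereg and Tgfa rose by 1.22 and 0.88.

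AE replicate 1 had the smaller difference from ISC in most genes, without turning a call. Of the 4426 genes higher in AE, it was the AE library nearest to ISC in 2873 (64.9%), against 732 for replicate 2 and 821 for replicate 3. Of the 4438 genes lower in AE, it was nearest in 2768 (62.4%), against 727 and 943. Over the 2854 genes higher by a log2 fold change of at least 1, the median difference in log2(CPM + 1) from the ISC mean was 1.39 in AE replicate 1, 1.76 in replicate 2 and 1.68 in replicate 3. Over the 2780 genes lower by as much, it was -1.13, -1.45 and -1.44. Tested alone against the 3 ISC libraries, AE replicate 1 gave 3673 higher (25.8%) and 3430 lower genes (24.1%) of 14225, with its own spread taken to be that of the ISC libraries. AE replicate 1 was also the deepest of the AE libraries, at 34157368 gene counts.

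**Figure D5:**
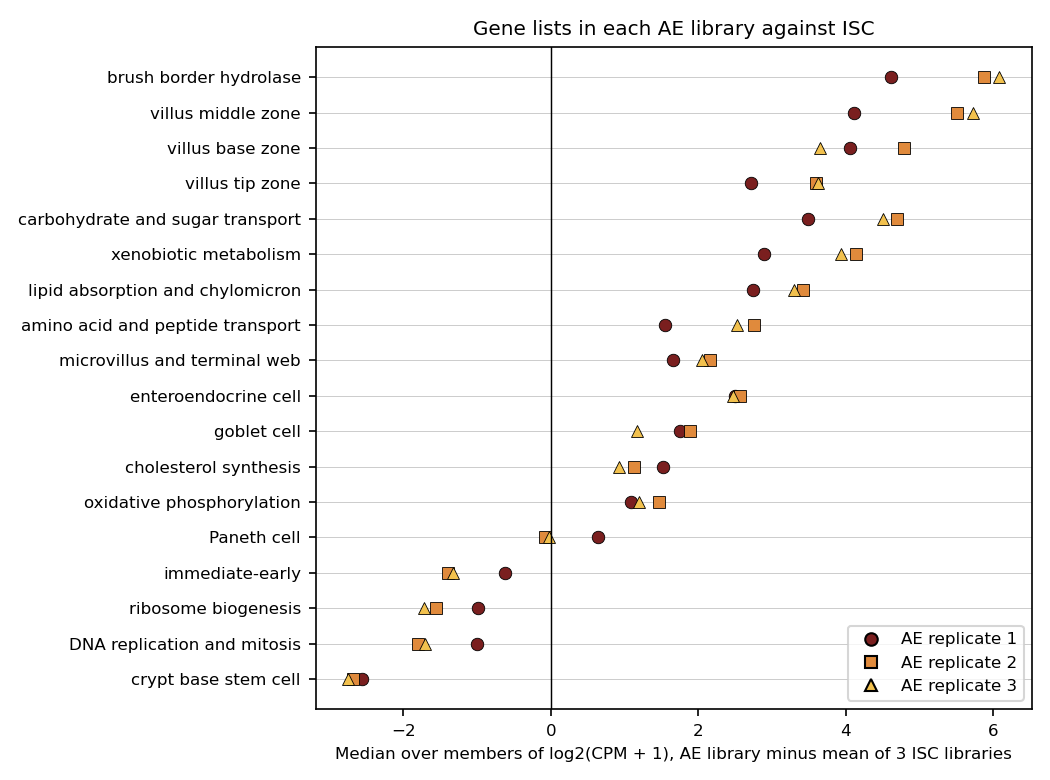
Median over the tested members of each list of the difference in log2(CPM + 1) between 1 AE library and the mean of the 3 ISC libraries, 1 symbol per AE library. AE replicate 1 lies nearer to 0 than both other AE libraries for brush border, villus middle, villus tip, immediate-early, ribosome biogenesis and replication genes, with them for stem cell and enteroendocrine genes, and farther from 0 for cholesterol synthesis and Paneth cell genes.

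The genes with the widest gap between AE replicate 1 and the nearer of the other AE libraries were of a few kinds. Higher in AE replicate 1 were the immediate-early genes Egr2, at 36.5, 7.92 and 9.27 CPM in the AE libraries, and Atf3, at 383, 57.5 and 107 CPM, along with Thbs1, a matrix glycoprotein, at 48.5, 8.06 and 15.0 CPM. Mptx2 of Paneth cells and the ribosomal protein gene Rpl10, of which 33.5% of the sequence was shared with other genes, were higher too. Lower in AE replicate 1 were Cyp2c29, a cytochrome, at 7.67, 142 and 43.8 CPM, Apoc3, an apolipoprotein, at 108, 606 and 616 CPM, and Rdh9, a retinol dehydrogenase, at 54.4, 294 and 369.9 CPM. Dnase1, at 64.9, 333 and 375 CPM, and Aldh4a1, an enzyme of proline breakdown, at 12.95, 115 and 66.8 CPM, were also lower there. These genes were picked for the gap, which is a description with no test. Their ISC levels were 795, 519.8 and 407 CPM for Atf3 and 3.55, 9.21 and 1.498 CPM for Apoc3.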

How the data were processed

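RNA of sorted cells was amplified and sequenced, per the labels' protocols. The deposited files hold raw counts per gene, made by the authors; mm9, HTSeq 0.6.1p1, STAR 2.3.1z13, DESeq2 1.6.3, bcl2fastq 1.8.4 and SAMtools 1.2 appear in the submitters' processing notes. Annotation and strand setting were not given in the sources used here. Of 23366 gene entries, 5308 were listed at 0 in all 6 libraries and 4728 more did not pass the filter on low counts (filterByExpr, minimum count 10). The 5 closing rows that name no gene were left out of library sizes and tests; they held the reads outside genes, with ambiguous gene or with several alignments.

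AE and ISC were compared on 6 libraries in R 4.3.3 with edgeR 4.0.16 (TMM scaling, quasi-likelihood F test, Benjamini-Hochberg adjustment over 13330 genes, threshold 0.05); limma 3.58.1 and DESeq2 1.42.0 served as alternatives. The SE of a fold change is its size divided by the square root of F. The fit was also run on simulated data with 200 changed genes, balanced each way, and the same spread for all genes. Those data lacked the many changes and the outlying AE library of the real data, so they cannot check the error rate here. Shared sequence is the percentage of a gene's transcript in 50-base stretches found in another gene's transcripts.

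The 48 gene lists (1099 distinct genes matched) and the genes of interest were chosen with earlier results of these data known. By rule, the text names the 8 largest changes each way (at least 20 CPM in the higher group, no overlap, called without AE replicate 1), up to 4 called members of each list (at least 5 CPM), a set of anchor genes, and the 5 genes each way with the widest gap of AE replicate 1; other list members were named after their values were seen. Libraries were not paired across groups by replicate number, since the labels tie no AE gut to an ISC gut.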

Additional observations from a re-analysis of the deposited data

How the results depend on the processing

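The counts of higher and lower genes stayed within 1.5 times of those reported under other scalings, with no filter, with all 12 libraries sharing one spread, in DESeq2 (8864 calls), in limma-voom with sample weights (9495 calls), with each library left out (7726 calls without ISC replicate 2 to 9193 without AE replicate 1) and in AE replicate 1 alone against ISC, which was added after the data were seen. Restricting the test to the 4990 genes that share no 50-base stretch with another gene, also added after the data were seen, left 3315 calls. Of these, 1646 were higher and 1669 lower in AE, with 1122 higher and 1104 lower by a log2 fold change of at least 1. These counts are smaller because fewer genes were tested. The log2 fold changes of these genes moved by a median of -0.11 from the fit on 13330 genes. The median over the genes tested was -0.03, against -0.04 in that fit. Upper-quartile scaling gave 3517 higher and 5518 lower genes.

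AE and ISC libraries of the same number deviated from their group means with correlations of 0.0356, 0.133 and 0.0622. AE replicates 2 and 3 correlated best with the ISC library of their own number, and AE replicate 1 with ISC replicate 3 (0.0781). Correlations this small, over 3 libraries a group, cannot show whether the numbers pair guts. With the replicate block 8778 genes were called, and among the named genes 1 call changed, that of Mptx2 (0.69).

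Of 196 genes named by the rule, Cdx2 and Lyz1 changed direction. Cdx2 was called in no fit and Lyz1 in AE replicate 1 alone (1.14, edgeR adjusted p = 0.0148), and the cause was not tested. Cdx2 was at -0.22 with upper-quartile scaling, -0.05 without AE replicate 3, -0.10 without ISC replicate 2, -0.016 in AE replicate 1 alone and -0.075 among genes with no shared stretch, and between -0.10 and 0.20 with single libraries left out. Lyz1 was at -0.15 without AE replicate 1 and -0.16 in limma-voom, and at up to 0.66 with another library left out. Hnf4a passed the threshold with 12 libraries (edgeR adjusted p = 0.0204), in DESeq2 (adjusted p = 0.0181) and in limma-voom (adjusted p = 0.00878), and in no other fit. Calls of Atf3, Clps, Epcam, Marcksl1 and Rpl10 were lost in several fits, and those of Cldn4, Egr2 and Errfi1 in AE replicate 1 alone.

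With 3 libraries a group, p-values rest on the spread between these samples. The AE spread came in large part from replicate 1. Counts with several alignments were handled differently in the 2 groups, so genes with close copies are the least certain. CPM compares 1 gene across libraries and not genes with each other, since lengths differ.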

Other observations

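Some genes that most cells use were listed at 0 in all 6 libraries, among them Hmgcs1 of sterol synthesis, so an entry at 0 here cannot be read as absence of the transcript. The ISC library of replicate 2 had the highest ISC level of several enterocyte genes, such as Apoa1, at 24.4, 89.1 and 19.4 CPM in ISC replicates 1, 2 and 3, and Lct, at 16.2, 74.0 and 20.9 CPM.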
